A study of Mus musculus with 10 samples.

Results

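Synaptogyrin 1 (Syngr1), St18, 4930555A03Rik, AV064505, Egfem1, neurotrimin (Ntm), 1700063D05Rik and Tlcd4 are 8 genes chosen by their read counts, because every library of one of the groups compared had nearly none. They are 8 of the 25233 genes with a symbol in the deposited table, of which 19373 had at least 1 read. Syngr1, St18, 4930555A03Rik and AV064505 carried their reads in hypHSCs, the hypertrophied hepatic stellate cells (HSCs), and Egfem1, Ntm, 1700063D05Rik and Tlcd4 in qHSCs, the quiescent ones. Because these levels chose the genes, their difference between hypHSCs and qHSCs is described here without a test.

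Each group had 5 libraries, sequenced from RNA of cells sorted from C57BL/6J mouse liver. The hypHSCs came from mice fed the CDAHFD, which is poor in choline and rich in fat and brings on steatohepatitis: libraries 1 and 2 after 13 weeks, at 19 weeks of age, and libraries 3, 4 and 5 after 12 weeks, at 18 weeks of age. The qHSCs came from mice on standard diet, aged 36 weeks in libraries 1, 2 and 5 and 34 weeks in libraries 3 and 4. Diet, age, digestion and sorting gate changed together between the groups and cannot be told apart. The n below counts preparations, because the labels do not say which mice gave which library, and the spread between them may be partly technical. In these bulk samples, fewer cells of a type and less RNA per cell cannot be told apart either.

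HSCs are the vitamin A-storing pericytes of the liver sinusoid, and in injured liver they can turn into matrix-producing myofibroblasts. Most of the 8 genes are better known from other tissues than from HSCs. Synaptogyrins are membrane proteins of synaptic vesicles, neurotrimin is an IgLON adhesion molecule held on the cell surface by a lipid anchor, and St18 is a zinc finger transcription factor of the MYT1 family. Egfem1 encodes a protein with EGF-like and EMI domains, and Tlcd4, formerly called Tmem56, a membrane protein with a TLC domain. The remaining 3 are long non-coding RNAs.

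By the positions of the deposited table (GRCm39), Syngr1 lies on chromosome 15 from 79975497 to 80003702 on the plus strand, and St18 spans 374 kb of chromosome 1 from 6557453 to 6931164 on the plus strand. Chromosome 3 holds 3 of the genes, namely Egfem1 (29135936 to 29745205, plus strand), Tlcd4 (120995410 to 121076748, minus strand) and 4930555A03Rik (150999762 to 151002631, plus strand). Chromosome 9 holds another 3, namely AV064505 (7669430 to 7695634, minus strand), Ntm (28906045 to 29874761, minus strand) and 1700063D05Rik (41117451 to 41128923, plus strand). Ntm and Egfem1 are very long genes, of 969 kb and 609 kb, with 7 and 15 exons in their canonical transcripts.

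For 3 of the genes the 250 bases before the annotated start of the canonical transcript are shown. They are read 5′ to 3′ on the strand of the gene from GRCm39. Syngr1 was taken as the most abundant of the genes high in hypHSCs by read count. Egfem1 and 1700063D05Rik were taken because their profiles were the most alike among the 8 genes, in part through a shared absence of reads in hypHSCs. Capitals mark matches, on either strand, to TATAAA (the TATA box), CCAAT (the CCAAT box), GGGCGG (the GC box), TGANTCA (bound by AP-1 factors), GAGGAAG (bound by some ETS factors), TAATTA (bound by homeodomain factors), AGATAA (bound by GATA factors) or CACGTG (an E-box).
Syngr1, chr15:79975103-79975352, plus strand: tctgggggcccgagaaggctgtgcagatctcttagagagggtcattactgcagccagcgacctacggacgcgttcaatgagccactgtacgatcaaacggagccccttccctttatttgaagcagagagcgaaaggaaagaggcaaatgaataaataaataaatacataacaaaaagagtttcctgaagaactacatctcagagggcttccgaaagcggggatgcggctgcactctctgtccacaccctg
Egfem1, chr3:29136216-29136465, plus strand: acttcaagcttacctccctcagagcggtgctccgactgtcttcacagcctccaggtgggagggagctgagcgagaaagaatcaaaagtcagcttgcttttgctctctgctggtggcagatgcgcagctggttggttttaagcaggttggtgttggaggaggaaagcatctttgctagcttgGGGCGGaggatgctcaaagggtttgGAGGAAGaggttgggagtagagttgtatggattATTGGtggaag
1700063D05Rik, chr9:41103423-41103672, plus strand: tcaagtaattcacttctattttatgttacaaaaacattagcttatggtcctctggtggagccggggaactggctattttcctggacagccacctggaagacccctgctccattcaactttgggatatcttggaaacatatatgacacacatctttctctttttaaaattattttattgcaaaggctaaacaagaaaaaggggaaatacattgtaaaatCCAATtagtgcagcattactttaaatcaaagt
None of the 8 motifs occurred in the Syngr1 window, which held 11 CpG dinucleotides beside a median of 8 over 21770 protein-coding promoters of this length. The Egfem1 window held CCAAT (in 36.5% of protein-coding promoters), GGGCGG (36.3%) and GAGGAAG (10.3%). The 1700063D05Rik window held CCAAT, found in 32.4% of the 32884 lncRNA promoters, and 1 CpG, beside a median of 3. The windows of this pair thus shared CCAAT, a common motif in both classes. The start of the canonical transcript is not always that of the entry whose reads were counted. It lies 144 bases before the entry of Syngr1 and 13.8 kb before that of 1700063D05Rik, and 530 bases inside that of Egfem1.

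The hypHSC libraries had 30534719 to 43283589 reads on genes with a symbol and the qHSC libraries 35640104 to 47317028, so that 3 reads, taken as the floor, equalled 2.25 to 4.54 normalized counts. This floor covers counting error only, since the cDNA was amplified. Both groups had reads on all 13 markers of quiescent HSCs, and all 13 were lower in hypHSCs, where they summed to 33659 to 64663 normalized counts against 1303520 to 2144300 in qHSCs. All 12 macrophage markers were higher in hypHSCs, with sums of 1061140 to 1506700 against 5197 to 107236. Of 10 neuron and glia markers 2 were tested and 1 was lower in hypHSCs. The list summed to 14.7 to 102 in hypHSCs and 542 to 982 in qHSCs. Sox10 and Elavl4 had no read in any library, and Snap25 had none in hypHSCs and at most 2 in a qHSC library. Over all genes, 2602 were higher (17.8%) and 3177 lower (21.7%) in hypHSCs among 14630 tested, a split that became 2013 and 4247 when libraries were scaled to the same total, which moved the median log2 fold change from -0.20 to -0.55. The part of these shifts in the values of the 8 genes was not tested.

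Among the genes high in hypHSCs, Syngr1 had 2962, 3198, 3208, 4123 and 1408 normalized counts in hypHSC 1 to 5, from 931 to 3930 reads. No qHSC library had a single Syngr1 read. All hypHSC libraries were far above the floor, and hypHSC 5 was the lowest of them. On the FPKM scale, which divides reads by exon length and library depth, Syngr1 reached 9.09 ± 3.18 (SD, n = 5), rank 2375 of the 17433 genes with reads in hypHSCs, so it was a well expressed gene there. Its level varied 2.93-fold between hypHSC libraries, and its SD on the log2 scale, 0.59, was below the median of 0.76 for the genes tested in hypHSCs.

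St18 had 115, 255, 240.33, 67.1 and 440.13 normalized counts in hypHSC 1 to 5 and no read in any qHSC library. The mean was 223 ± 145 (SD, n = 5), at least 89.7-fold above the floor of the qHSC libraries. St18 was highest in hypHSC 5, the library in which Syngr1 was lowest, and its values spanned 6.56-fold. At 0.801 ± 0.473 FPKM (SD, n = 5) it ranked 8437 in hypHSCs, a low level per length.

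The lncRNA 4930555A03Rik had 115, 116, 83.2, 109 and 271 normalized counts in hypHSC 1 to 5 and none in qHSCs. Its mean of 139 ± 75.0 (SD, n = 5) was at least 55.7-fold above the qHSC floor. Libraries 1 to 4 lay close together and hypHSC 5 stood above them, as it did for St18. Its level per length, 0.988 ± 0.429 FPKM (SD, n = 5), was like that of St18. In hypHSC 5 the 6 hepatocyte markers, none of which was a DEG, summed to 178267 normalized counts against 13474 to 78889 in the other hypHSC libraries and 34119 to 100433 in qHSCs, and the macrophage markers to 1061140, their lowest sum in hypHSCs. Lyz2 alone made up 740305 of this macrophage sum. The 8 markers of lipid-associated macrophages, in contrast, had their highest sum in hypHSC 5, at 1133040. Whether the high St18 and 4930555A03Rik and the low Syngr1 of this library go with these sums was not tested.

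The lncRNA AV064505 had 496, 93.2, 118, 65.0 and 60.5 normalized counts in hypHSC 1 to 5 and none in qHSCs. Its mean of 167 ± 186 (SD, n = 5), at least 66.9-fold above the qHSC floor, rested largely on hypHSC 1, and without that library it was 84.2 ± 26.8 (SD, n = 4). Its values spanned 8.20-fold, the widest range of the 8 genes in the group where each is high.

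AV064505 runs antisense to Mmp7, which encodes matrilysin, a metalloproteinase of epithelia. Of its 522 exon bases in GENCODE, 123 (23.6%) coincide with coding bases of Mmp7 on the other strand, at chr9:7695495-7695617. They lie in its first exon, shown here 5′ to 3′ on the minus strand of GRCm39 because the libraries did not keep the strand, with the bases shared with Mmp7 in capitals.
AV064505 exon 1, chr9:7695495-7695632, minus strand: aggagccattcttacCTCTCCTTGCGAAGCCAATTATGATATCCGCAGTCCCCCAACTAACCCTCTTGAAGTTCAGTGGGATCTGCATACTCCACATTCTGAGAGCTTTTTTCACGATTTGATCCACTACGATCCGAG
Reads from these bases cannot be assigned to one strand, so the AV064505 and Mmp7 values are uncertain where they meet. Mmp7 had 1335, 195, 367, 132 and 133 normalized counts in hypHSC 1 to 5 and no read in qHSCs. Its mean of 432 ± 514 (SD, n = 5) was at least 174-fold above the qHSC floor (adjusted p = 3.6e-06, limma). AV064505 stood at 37.1%, 47.9%, 32.2%, 49.2% and 45.5% of the Mmp7 value in these libraries. Both thus varied 8.20-fold and 10.1-fold while their ratio varied 1.53-fold, and both were highest in hypHSC 1. This library also had the largest shares of mitochondrial reads, 12.8% against 2.21% to 7.27% in the other hypHSC libraries, and of reads without a gene symbol, 29.1% against 10.8% to 20.1%. The 4 cholangiocyte markers, of which 3 were tested and all 3 were higher in hypHSCs, also summed highest in hypHSC 1, to 2711 normalized counts against 436 to 764 in the other hypHSC libraries and 4.72 to 56.1 in qHSCs. The plot of AV064505 and Mmp7 by library puts these values side by side, and the part of cholangiocyte RNA and of library quality in them was not tested.

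**Figure D1:**
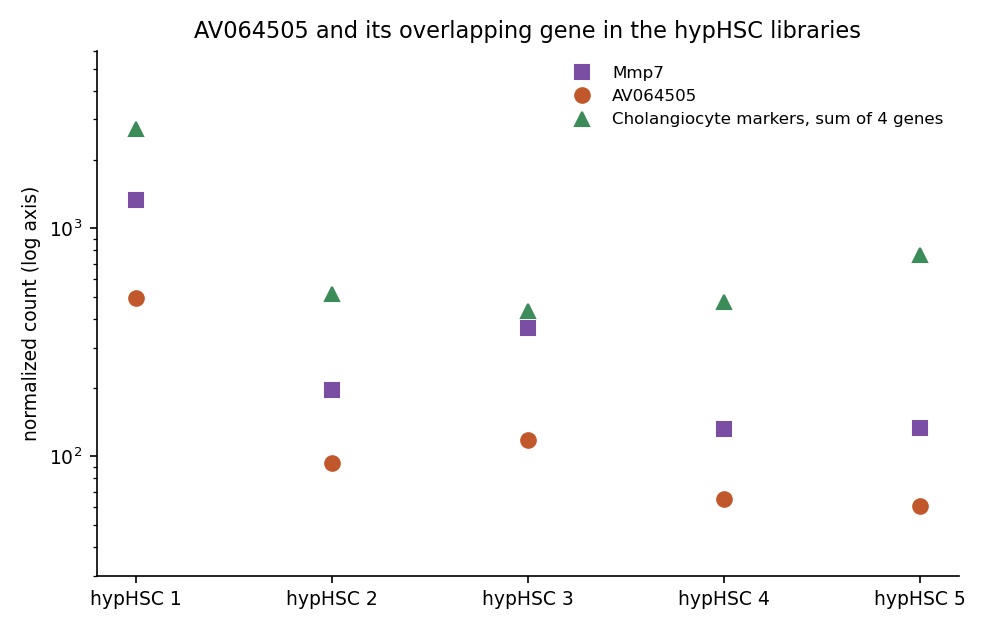
Normalized counts (log axis) of Mmp7 (squares), AV064505 (circles) and the sum of 4 cholangiocyte markers (triangles) in the 5 hypHSC libraries, 1 point per library. All 3 are highest in hypHSC 1, at 1335, 496 and 2711.

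Of the genes high in qHSCs, Egfem1 had 2303, 2484, 1488, 1953 and 2772 normalized counts in qHSC 1 to 5. No hypHSC library had an Egfem1 read. At 11.2 ± 2.06 FPKM (SD, n = 5) it ranked 2460 of the 17259 genes with reads in qHSCs. Its libraries spanned only 1.86-fold, the narrowest range of the 8 genes, and its SD on the log2 scale, 0.35, was at the median of the genes tested in qHSCs.

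Ntm had 4017, 5463, 2637, 5743 and 5662 normalized counts in qHSC 1 to 5, and 8.09, 13.5, 4.16, 0 and 0 in hypHSC 1 to 5. It was the highest of the 8 genes per length, at 17.6 ± 4.60 FPKM (SD, n = 5) in qHSCs. Its hypHSC values were not at the floor throughout, since 24 reads were spread over 3 libraries. The ratio of the group means was 915 and became 1536 without hypHSC 2, and the lowest qHSC library was still 196-fold above the highest hypHSC library.

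The lncRNA 1700063D05Rik had 1489, 2247, 818, 1783 and 1878 normalized counts in qHSC 1 to 5 and no read in hypHSCs. At 13.6 ± 4.14 FPKM (SD, n = 5) it stood above Egfem1 by its mean per length, although their values overlapped. It ranked 2156 of the 17259 genes of all types with reads in qHSCs, and it was not compared with other lncRNAs. The exon length used is that of the GENCODE gene, which starts 13.8 kb before the entry whose reads were counted.

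Tlcd4, which single-cell studies have used to mark HSCs, had 990.16, 1174, 579, 1172 and 1104 normalized counts in qHSC 1 to 5, and 22.9, 3.11, 0, 0 and 16.6 in hypHSC 1 to 5. The reads in hypHSCs numbered 31, and only hypHSC 1 and 5 were above the floor. The ratio of means was 118 and became 203 without hypHSC 1, and the closest libraries of the groups differed 25.3-fold, the smallest gap among the genes high in qHSCs. In qHSCs its level per length was 3.47 ± 0.790 FPKM (SD, n = 5), rank 5031.

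Egfem1, Ntm, 1700063D05Rik and Tlcd4 all had their lowest qHSC value in qHSC 3. In that library the 13 markers of quiescent HSCs summed to 1303520 normalized counts, below the 1808270 to 2144300 of the other qHSC libraries, and whether the lower values of the 4 genes go with it was not tested. The groups did not overlap for any of the 8 genes, as the choice of the genes required, and 39.5% of all genes tested had groups that did not overlap.

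**Figure D2:**
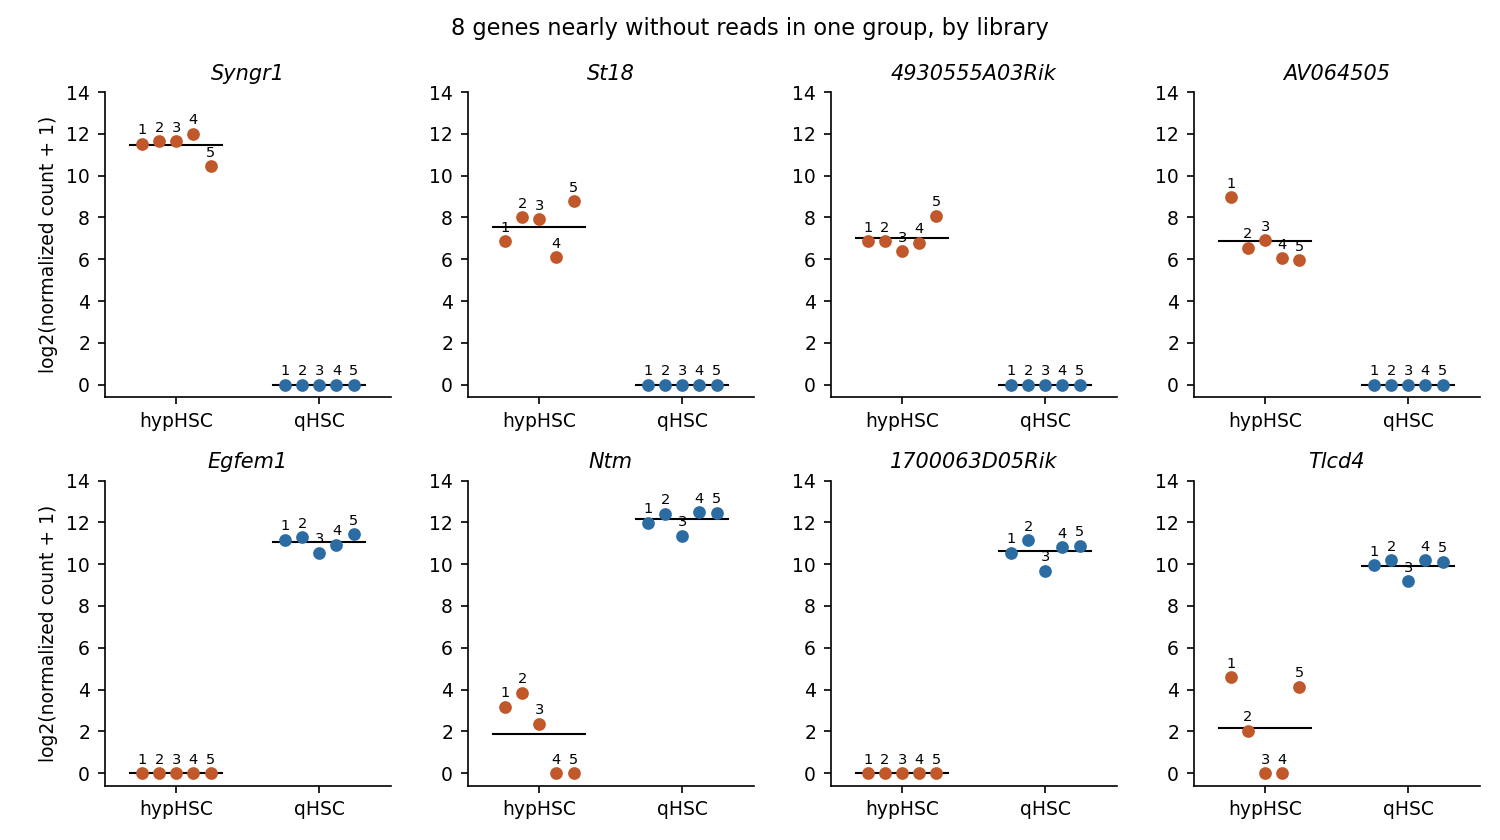
Level of each of the 8 genes in every library, as log2(normalized count + 1), for hypHSCs (orange) and qHSCs (blue), with replicate numbers beside the points and a line at the mean of each group. Points at 0 are libraries without a read, and Ntm and Tlcd4 show the few hypHSC libraries with reads.

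To see how rare such a pattern was, every gene with a read was searched for at most 3 reads in each library of one group and 100 or more normalized counts, as a mean, in the other. This held for 48 genes high in hypHSCs (0.248% of 19373) and 25 genes high in qHSCs (0.129%). With no read at all in the low group they were 32 (0.165%) and 18 (0.0929%). Syngr1 had the highest mean of the 48, St18 was rank 19, AV064505 rank 30 and 4930555A03Rik rank 35. Egfem1 and 1700063D05Rik were the highest and second highest of the 25. Ntm and Tlcd4 did not meet this count because of their few hypHSC reads. The median of the means was 183 in the 48 genes and 139 in the 25, so Syngr1, Egfem1 and 1700063D05Rik stood far above the usual level of such genes, and St18, AV064505 and 4930555A03Rik near it.

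**Figure D3:**
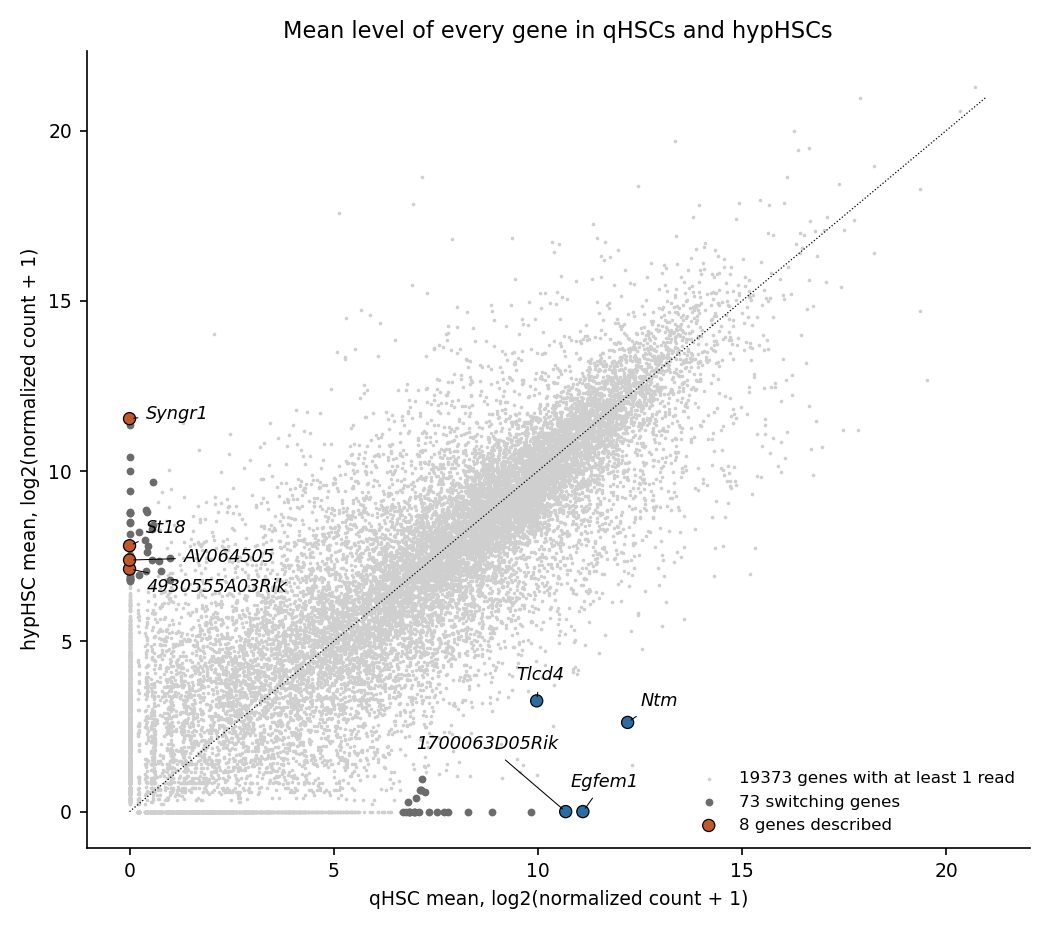
Mean of each of the 19373 genes with a read in qHSCs (x axis) and hypHSCs (y axis), as log2(normalized count + 1), with the 73 genes that met the count above in dark grey, the 8 genes described in orange (high in hypHSCs) or blue (high in qHSCs) and a dotted line of equal level. Syngr1 and Egfem1 lie at the far ends of the axes where the other group has no reads.

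The introns of Ntm and Egfem1 held further signal with the same pattern. The deposited table has 13 entries without a symbol inside Ntm, none of which shares a base with its exons. Their means in qHSCs ran from 27.5 to 316 normalized counts (median 89.2), and all hypHSC libraries together had 1 read on them. Summed, they equalled 34.8% of the Ntm level. The introns of Egfem1 held 6 such entries with qHSC means of 41.9 to 1255 (median 97.0), and 2 reads in all hypHSC libraries. The largest of them had 1500, 1414, 1075, 1201 and 1087 normalized counts in qHSC 1 to 5, at chromosome 3, 29208369 to 29210192, toward the start of the gene. The 6 summed to 75.7% of the Egfem1 level. Of the 9971 entries without a symbol and with a qHSC mean of at least 10, 618 (6.2%) had at most 3 reads in every hypHSC library. Some of these entries overlap genes of GENCODE, namely Gm15520, a lncRNA on the strand opposite to Ntm, and Gm38029 and Gm37965 on the strand of Egfem1. Whether the entries are unspliced RNA of Ntm and Egfem1 or transcripts of their own was not tested. In St18, 1 such entry had 0, 15.5, 34.9, 6.29 and 4.54 normalized counts in hypHSC 1 to 5, and none in qHSCs. The miRNA genes Mir551b and Mir21b inside Egfem1 had no read in either group, in libraries that were not made for short RNAs.

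**Figure D4:**
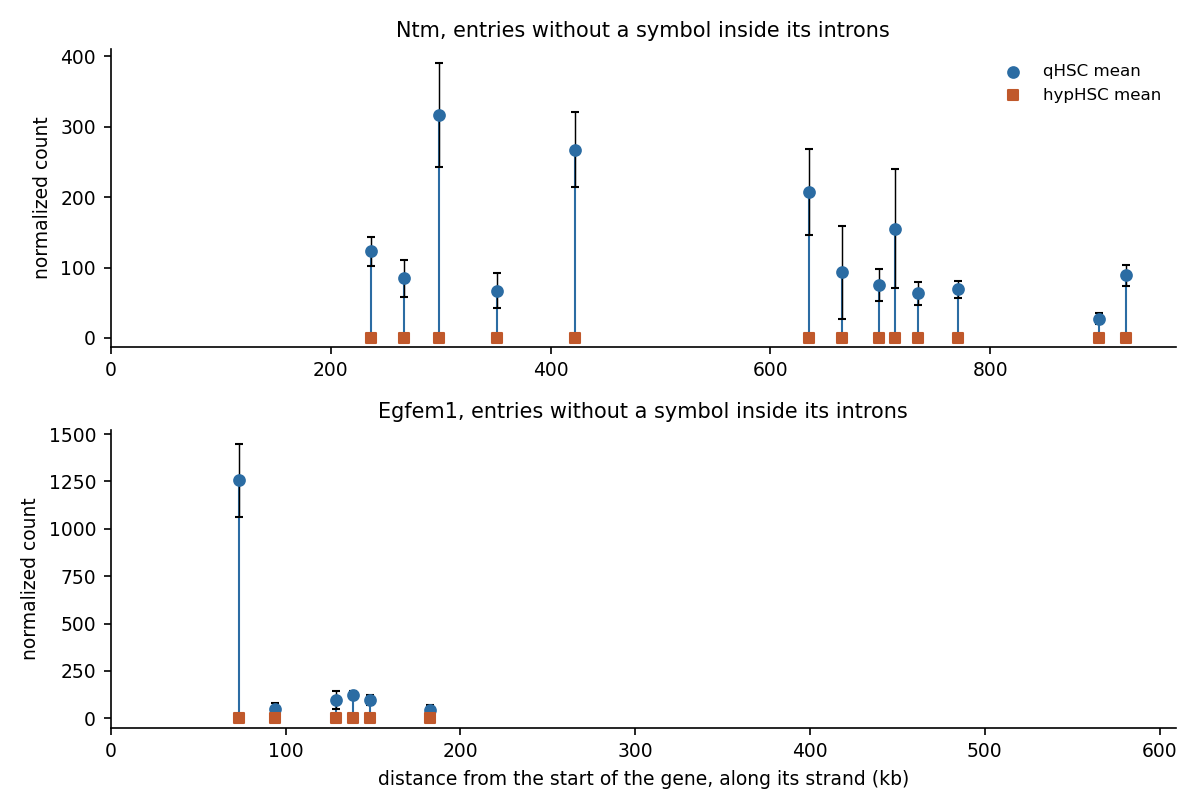
Mean normalized count of the entries without a symbol inside the introns of Ntm (top) and Egfem1 (bottom), by distance from the start of the gene along its strand in kb, for qHSCs (circles, error bars are SD, n = 5) and hypHSCs (squares). The hypHSC means lie at or near 0 for all 19 entries, and 1 entry of Egfem1 reaches 1255 in qHSCs.

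Another gene overlapped the start of Syngr1, namely Gm31134, with 4.04, 9.32, 16.6, 35.7 and 3.02 normalized counts in hypHSC 1 to 5 and none in qHSCs. It was low in each library beside Syngr1. Stretches of 59 bases, the read length, that recur in another gene made up 14.2% of the AV064505 stretches, all in Mmp7, and at most 2.16% of those of any other of the 8 genes, so shared sequence touched mainly AV064505.

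The choice of the genes did not use the comparisons within a group, so these were tested. Between 13 and 12 weeks of diet in hypHSCs, where weeks of diet and age run together, limma called 0 of 15224 genes (0.0%), with 538 at an unadjusted p under 0.05, and edgeR called 0 with 495. The log2 difference, 13 minus 12 weeks, was 0.22 for Syngr1 (SE 0.50, adjusted p = 0.903), -0.17 for St18 (SE 0.89, adjusted p = 0.961) and -0.23 for 4930555A03Rik (SE 0.71, adjusted p = 0.932). For AV064505 it was 1.46 (SE 0.87, adjusted p = 0.784), and 0.26 without hypHSC 1. The pair at 13 weeks, hypHSC 1 and 2, also had the largest shares of mitochondrial reads, 12.8% and 7.27%, and their part in these differences was not tested. The few reads of Tlcd4 in hypHSCs gave 1.93 (SE 2.11, adjusted p = 0.804). Without hypHSC 5 the difference was -0.24 for Syngr1, 0.42 for St18 and 0.27 for 4930555A03Rik, each with the opposite sign. For none of the 5 genes did the libraries at 13 and 12 weeks separate without overlap, which 22.3% of the genes tested did. None of the 5 differences passed the test, and with SEs of this size changes of several fold could be missed.

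Between 36 and 34 weeks of age in qHSCs, limma called 0 of 14881 genes (0.0%), with 617 at an unadjusted p under 0.05, and edgeR called 0 with 491. Egfem1 had means of 2519 normalized counts at 36 weeks and 1720 at 34 weeks, a log2 difference of 0.56 (SE 0.18), and the 3 libraries at 36 weeks were all above the 2 at 34 weeks, a separation that 19.6% of the genes tested showed. Adjusted over all genes it did not pass (adjusted p = 0.933). For Ntm the difference was 0.36 (SE 0.33, adjusted p = 0.935), for 1700063D05Rik 0.61 (SE 0.34, adjusted p = 0.933) and for Tlcd4 0.40 (SE 0.30, adjusted p = 0.933). The means of the 4 genes were all larger at 36 weeks without passing the test, and qHSC 3, their lowest library, is one of the pair at 34 weeks. Without qHSC 3 the difference was -0.20 for Ntm and -0.11 for Tlcd4.

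To place the genes among their families, lists of relatives were compared between hypHSCs and qHSCs. Of 56 relatives 36 were tested and 18 were differentially expressed (DEGs), 7 higher and 11 lower in hypHSCs, which is 50% beside the 39.5% of all genes tested. Their median log2 fold change was -0.10 beside -0.20 for all genes. The share of DEGs among the relatives was thus near that of all genes.

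Of the synaptogyrins and synaptophysins, 3 of 7 were tested. Syngr3, like Syngr1 a synaptogyrin of neurons, went the opposite way to Syngr1 and was lower in hypHSCs, at 1.08 ± 1.15 against 62.4 ± 17.9 normalized counts (SD, n = 5; log2 fold change -5.07, SE 0.58, adjusted p = 3.6e-05). Syngr2, the widely expressed synaptogyrin, had 4090 ± 2178 and 2837 ± 331 (SD, n = 5) and did not pass the test (adjusted p = 0.709), nor did Sypl, also called Sypl1 (adjusted p = 0.0759). Syp, the synaptophysin gene, was at the floor in hypHSCs with 0.540 ± 1.21 against 16.2 ± 12.3 in qHSCs (SD, n = 5) and was not tested. Sypl2 had no read in hypHSCs and 4.43 ± 9.91 normalized counts in qHSCs (SD, n = 5), all from qHSC 2. Synpr had no read in any library. Of 12 tested vesicle and secretory partners, 3 were higher and 3 lower in hypHSCs. Syn1, which tethers synaptic vesicles, was higher with a log2 fold change of 2.16 (SE 0.67, adjusted p = 0.0193). Rab3a, a GTPase of regulated secretion, was lower with -3.10 (SE 0.41, adjusted p = 0.00011), and so was the plasma membrane syntaxin Stx1a with -4.19 (SE 1.05, adjusted p = 0.0068), although not in edgeR (adjusted p = 0.0656). Vamp2 had 133 ± 74.0 and 351 ± 64.9 (SD, n = 5; adjusted p = 0.0619). Syn2 had no read in qHSCs and at most 9 reads in a hypHSC library, with 1 library over the floor. Snap25 had none in hypHSCs and at most 2 reads in a qHSC library, so it was at the floor in both groups.

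Neither the MYT1 family nor the IgLON family gave a tested relative. Myt1 had no read in any library, and Myt1l had 1.05 ± 2.35 normalized counts in the hypHSC group and 14.5 ± 32.4 in the qHSC group (SD, n = 5), so of this family only St18 was above the floor in every hypHSC library. Among the IgLON genes Lsamp had 1.08 ± 2.41 and 41.2 ± 25.8, Opcml 5.81 ± 1.27 and 8.06 ± 10.7, Negr1 7.74 ± 14.1 and 1.09 ± 2.43, and Iglon5 1.75 ± 1.79 and 19.3 ± 12.6 (SD, n = 5). In qHSCs all 4 were thus far below Ntm, whose mean there was 4704 normalized counts, although these values are not per length.

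Of 13 tested genes with a TLC domain, 2 were higher and 3 lower in hypHSCs. Tlcd5 was lower with a log2 fold change of -4.98 (SE 1.09, adjusted p = 0.0030) and the ceramide synthase Cers4 with -3.92 (SE 0.79, adjusted p = 0.0018), on the side of Tlcd4. The ceramide synthase Cers6, which favours shorter acyl chains, was higher with 5.39 (SE 0.99, adjusted p = 0.00098), and so was Cln8 with 2.05 (SE 0.47, adjusted p = 0.0041). The 8 others, Tlcd1, Tlcd2 and Cers2 among them, were not DEGs.

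Of 8 tested genes with EMI or EGF domains, 2 were higher and 4 lower in hypHSCs. Emid1 was lower like Egfem1 and had no read in hypHSCs against 79.4 ± 18.5 normalized counts in qHSCs (SD, n = 5), at least 22.9-fold above the hypHSC floor (adjusted p = 2.4e-06, limma). The platelet and endothelial receptor gene Pear1 was lower with a log2 fold change of -4.82 (SE 0.47, adjusted p = 1.2e-05), and Egfl7, an endothelial secreted factor, with -4.50 (SE 1.05, adjusted p = 0.0043). Emilin2, an elastin microfibril interface protein, was higher with 4.94 (SE 0.96, adjusted p = 0.0015).

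The 3 genes with a symbol on each side of the 8 genes, 7.89 to 2684 kb away, were compared in the same fit. Of these 48 neighbours 25 were tested, and 12 were DEGs, 4 higher and 8 lower in hypHSCs, which is 48% beside 39.5% for all genes. Of the 14 tested beside genes high in hypHSCs, 2 were higher there (17.8% of all genes), and of the 11 beside genes high in qHSCs, 6 were lower in hypHSCs (21.7% of all genes). Neighbours of 1 gene are not independent, so these counts are a description. The median log2 fold change of the neighbours was -0.68.

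Tlcd4 had the most neighbours on its side. Cnn3, a calponin of the actin skeleton 143 kb away, was lower with -4.39 (SE 0.34, adjusted p = 2.4e-06), Rwdd3 with -3.47 (SE 0.55, adjusted p = 0.00038) and Alg14, an enzyme subunit of N-glycan assembly 8.64 kb away, with -1.87 (SE 0.15, adjusted p = 2.5e-06). Slc44a3, in contrast, averaged 81.7 ± 108 normalized counts among hypHSC libraries and 16.1 ± 9.65 among qHSC libraries (SD, n = 5; adjusted p = 0.594). Around AV064505, in the metalloproteinase cluster, Mmp8 was higher with 6.89 (SE 0.73, adjusted p = 2.1e-05) and Mmp27 with 4.49 (SE 0.99, adjusted p = 0.0033). Beyond the cluster Tmem123, with 0.31 (SE 0.21, adjusted p = 0.242), was not a DEG. Nor was Birc2, with -0.85 (SE 0.23, adjusted p = 0.0107), which missed only the fold threshold. Next to Egfem1, the transcription factor gene Mecom had no read in hypHSCs and 44.6 ± 16.1 normalized counts in qHSCs (SD, n = 5), at least 12.9-fold above the hypHSC floor (adjusted p = 1.1e-05, limma). On its other side Rpl22l1, a ribosomal protein paralog, was higher at 5264 ± 945 against 2415 ± 441 normalized counts (SD, n = 5; adjusted p = 0.0004), a call that ended, at a log2 fold change of 0.77, when libraries were scaled to the same total.

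Near Ntm the protease gene Adamts15 was lower with -3.52 (SE 0.81, adjusted p = 0.0042), while Opcml, the IgLON gene 69.0 kb from Ntm, had too few reads for a test. Beside 1700063D05Rik, the miRNA host gene Mir100hg was lower with -3.87 (SE 0.91, adjusted p = 0.0047) and the phosphatase gene Ubash3b, on the other side, was higher with 2.14 (SE 0.26, adjusted p = 5.8e-05). None of the 5 tested neighbours of Syngr1 was a DEG. The ribosomal protein gene Rpl3 at 7.89 kb had 0.59 (SE 0.15, adjusted p = 0.0069), which missed only the fold threshold. St18 and 4930555A03Rik each had 1 neighbour that went the opposite way, namely Sntg1 with -4.30 (SE 0.34, adjusted p = 2.9e-06) and the interferon-induced Ifi44 with -1.85 (SE 0.56, adjusted p = 0.0183).

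**Figure D5:**
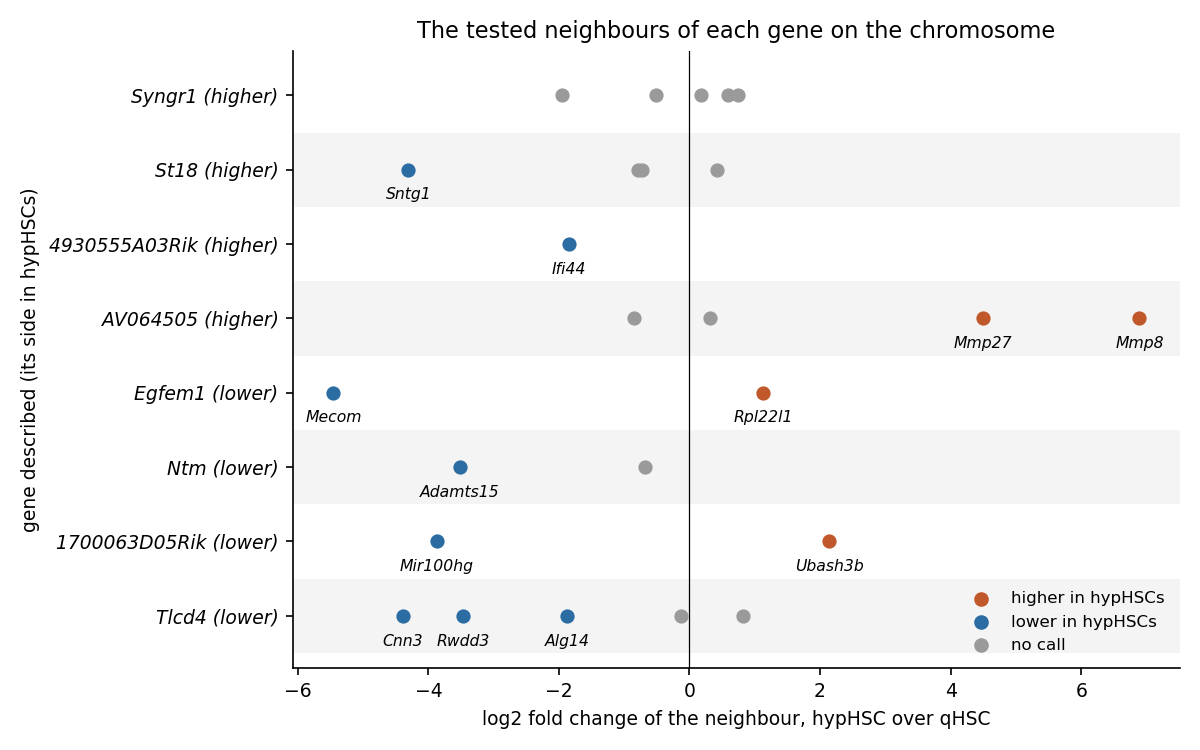
Log2 fold change, hypHSC over qHSC, of the 25 tested neighbours of the 8 genes, 1 row per gene with its own side in hypHSCs in brackets, in orange where the neighbour was higher, blue where lower and grey where it was not a DEG. AV064505 and Tlcd4 have 2 and 3 neighbours called on their side, Egfem1, Ntm and 1700063D05Rik have 1 each, and Syngr1, St18 and 4930555A03Rik have none.

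Finally, for each of the 8 genes the most alike profiles were sought among 19372 genes, by the root mean square (RMS) difference of log2 values over the 10 libraries after centring on the group where the gene is high. This describes likeness in these libraries, and a shared absence of reads in one group makes up much of it. Egfem1 and 1700063D05Rik were each other's nearest, with 0.39, and next for both, in differing order, were Hhip, a hedgehog-binding protein, and Galnt14, an enzyme of O-glycosylation. Nearest to Ntm were Mapt, the microtubule protein tau (1.03), Nt5e (1.13) and 1700063D05Rik (1.17). Nearest to Tlcd4 were the glucagon receptor gene Gcgr (0.90), Ppp1r14a (1.14) and Ptprt (1.15).

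Syngr1 was most like Npy, the neuropeptide Y gene, with 0.61. Npy had 2619 ± 791 normalized counts in hypHSCs (SD, n = 5) and no read in qHSCs. Next came Mmp12 (0.92) and Gpnmb (1.09), both on the list of lipid-associated macrophage markers, whose 8 genes were all higher in hypHSCs and summed to 962274 to 1133040 normalized counts there against 5090 to 6700 in qHSCs. The part of macrophage RNA in the Syngr1 level was not tested. St18 was most like Prss46 (0.51), 4930555A03Rik (0.67) and Fgf13 (0.69), and 4930555A03Rik most like Serpinb12 (0.26), Rhov (0.39) and Fgf13 (0.45). AV064505 was most like Rassf9 (0.34), the keratin gene Krt23 (0.47) and the annexin gene Anxa13 (0.53).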

How the data were processed

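RNA from sorted hypHSCs and qHSCs (5 libraries each) was reverse-transcribed, amplified, and sequenced from both ends without strand information. Per the labels and the study's methods, the authors checked quality with FastQC 0.11.2, Picard 1.119 and SAMtools 1.0, mapped reads to mm39 (GRCm39) with STAR and counted them per gene with featureCounts (Subread 1.5.0) on FAST DB annotations. The deposited signal is a normalized count, the reads divided by a DESeq2 size factor per library. Multiplication by size factors of 0.661 to 1.33 gave whole reads for 100% of values, within 0.005, which served for depth, FPKM, edgeR and DESeq2.

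Symbol-bearing genes that reached 10 normalized counts in 5 of 10 libraries (2 of 5 within a group) were compared as log2(normalized count + 1) with limma (3.58.1, intensity trend, Benjamini-Hochberg adjustment) in R 4.3.3. DEGs changed by 1 or more on the log2 scale, in either direction, with an adjusted p no higher than 0.05. All 8 genes passed this filter only through the group where they are high. Folds on this scale understate changes of low genes. A fold against a group without reads was computed against 3 reads per library, averaged over the group, as a lower bound. Exon lengths, overlaps and sequences came from GENCODE and GRCm39, whose models can differ from FAST DB.

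The members and lists were chosen with earlier results of these data known. Named were the 8 genes and up to 4 tested relatives a family with the largest absolute fold changes. Some but not all relatives at the floor were named too. Added to these were up to 2 DEG neighbours a gene with the largest absolute fold changes and the 3 most alike profiles. Overlapping entries were also named, other than that of Mmp20 at AV064505. Tlcd1, Tlcd2, Cers2 and the neighbours Alg14, Slc44a3, Tmem123, Birc2, Rpl3 and Opcml were added after their values were seen. Alternatives were other pseudocounts (0.5, 5), filters, scalings (TMM, same total), edgeR 4.0.16, DESeq2 1.42.0, the replicate block, and leaving out each library. The steps were tested on simulated data.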

Additional observations from a re-analysis of the deposited data

Results flagged for a closer look

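Of 31 groups of 5 libraries examined (the 8 genes, Mmp7 and the sums of the marker lists, where values varied), 5 had a library set apart from the rest. The rule was a gap over 0.71 of the whole range of the group. Chance gives this in about 1 in 20 groups where values are normally distributed. Normalized counts were used here without a log, and AV064505 and Mmp7 share bases, so the 5 are no count of independent events. AV064505 was at 495.88 normalized counts in hypHSC 1 against 60.5 to 118 in the other hypHSC libraries, and its overlapping gene Mmp7 was at 1335.38 in the same library against 132 to 367. The sum of the cholangiocyte markers was also set apart in hypHSC 1, at 2711.19 against 436 to 764. So was that of the quiescent HSC markers, at 64662.9 against 33659 to 40257. Dcn alone made up 39405 of that sum in hypHSC 1, beside 16456 to 31017 in the other hypHSC libraries. The sum without Dcn was not examined. The lncRNA 4930555A03Rik was at 270.73 in hypHSC 5 against 83.2 to 116. An entry without a symbol in an intron of St18, which belongs to none of the tests, had a mean of 12.258 normalized counts in hypHSCs and no read in qHSCs.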

How the results depend on the processing

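That the groups of the 8 genes do not overlap was fixed by their choice, so it was not read as stability under the alternatives. Between hypHSCs and qHSCs 5779 genes were DEGs, 5241 to 5914 with each library left out. For relatives (18) the range was 15 to 19, and for neighbours (12) it was 12 to 13. For the comparison of 13 with 12 weeks it was 0 to 0, with the 1 library left at 13 weeks assumed to vary like the others, and for 36 with 34 weeks also 0 to 0. One fit of all 10 libraries in 4 groups gave 1 DEG between 13 and 12 weeks in place of 0, and the cause was not tested. With the replicate number as a block, 5786 genes, 17 relatives and 12 neighbours were DEGs. The deviations of libraries with the same number correlated by only 0.00815 to 0.129, so the numbers were not taken as pairing. Among the 27 named relatives, neighbours and Mmp7, 503 values under the alternatives kept direction and call, Vamp2 became a DEG in 5, and Stx1a (edgeR) and Rpl22l1 (same total) lost their call in 1 each. The sign of some differences that were not called turned: with the same total Sypl was at -0.0091 and Syngr2 at -0.12, and with edgeR Syngr1 was at -0.059 between 13 and 12 weeks. With each library left out, Syngr2 ranged from -0.00020 to 0.76, between 13 and 12 weeks Syngr1 from -0.24 to 0.53, St18 from -0.92 to 0.42 and 4930555A03Rik from -0.57 to 0.27, and between 36 and 34 weeks Ntm from -0.20 to 0.92 and Tlcd4 from -0.11 to 0.91. No called direction turned. The log2 differences of members without reads in one group move with the pseudocount and were not printed. Depth sets a floor of 3 reads, so that absence below it was not detectable, and 2 against 3 libraries limit the comparisons within a group.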
